A study of Mus musculus with 8 samples.

Results

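RNA seq was used to examine 10 genes that encode inhibitory and costimulatory receptors of T cells in Th17 cells that carried either WT-ROR-γt or the K187R mutant. The genes were taken by symbol from the table of all genes. They were Ctla4, Pdcd1, Lag3, Havcr2, Tigit, Btla, Icos, Cd160, Cd200 and Cd96, and all 10 were among the 22829 genes listed. None had a mean under 10 normalized counts, so all 10 were among the 16982 genes tested. A normalized count is the number of reads on a gene divided by a size factor of the sample. There were 4 samples of each group, and all came from CD4+ T cells of ROR-γt-/- mice, purified from spleen and differentiated under Th17-inducing conditions. The WT group had been transduced with a lentivirus expressing V5-tagged WT-ROR-γt. The K187R group had received the same vector with K187R-ROR-γt, a form in which a lysine is replaced by arginine and which is defective in SUMOylation. By this account both groups lacked endogenous ROR-γt and carried it from a vector rather than from its own locus. The deposited description of the series instead speaks of WT and mutant mice, and the design given here is that of the sample labels and the methods. The ages of the mice and the promoter of the vector are not given in the sources used here. The labels and the methods do not say whether the samples are separate animals or cultures, so the p-values measure only the spread between these samples.

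T cells become active when the antigen receptor is engaged together with a costimulatory receptor such as CD28 or ICOS, and activation also induces inhibitory receptors that hold the response in check. CTLA-4 competes with CD28 for shared ligands on antigen-presenting cells. PD-1 (Pdcd1), LAG-3, TIM-3 (Havcr2) and BTLA carry inhibitory signals from ligands on other cells. TIGIT and CD96 share ligands of the nectin family with the activating receptor CD226. CTLA-4 is found at high levels on regulatory T cells, which express the transcription factor Foxp3. The comparison asks whether transcripts of these receptors differ between T cells with the 2 forms of ROR-γt.

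Ctla4 and Cd96 were the receptor genes whose groups did not overlap. Ctla4 was lower in every K187R sample than in every WT sample, and Cd96 was higher in every K187R sample than in every WT sample. Neither passed the adjusted threshold of 0.05 in limma, and no receptor gene did. The other 8 were higher on average in the K187R group, with groups that overlapped. The windows around the transcription starts of Ctla4 and Cd96 are shown first, because their groups did not overlap. RefSeq sequence of GRCm38.p6 gives 250 bases before the start and 50 from it on. The start used for Ctla4, at 60909025, lies inside the span of the gene given below, which begins at 60887000. Capitals mark GGAAA or its complement TTTCC, the core bound by NFAT factors of activated T cells, and TATAAA. The Ctla4 window is chr1:60908775-60909074 on the plus strand and that of Cd96 is chr16:46120199-46120498 on the minus strand, each written 5′ to 3′ on the strand of its gene.
Ctla4: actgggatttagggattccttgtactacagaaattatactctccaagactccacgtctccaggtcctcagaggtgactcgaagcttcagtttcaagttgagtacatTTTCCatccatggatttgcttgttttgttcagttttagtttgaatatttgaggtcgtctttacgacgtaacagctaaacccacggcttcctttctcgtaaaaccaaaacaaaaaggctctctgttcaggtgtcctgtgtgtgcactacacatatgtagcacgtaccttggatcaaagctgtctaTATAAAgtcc
Cd96: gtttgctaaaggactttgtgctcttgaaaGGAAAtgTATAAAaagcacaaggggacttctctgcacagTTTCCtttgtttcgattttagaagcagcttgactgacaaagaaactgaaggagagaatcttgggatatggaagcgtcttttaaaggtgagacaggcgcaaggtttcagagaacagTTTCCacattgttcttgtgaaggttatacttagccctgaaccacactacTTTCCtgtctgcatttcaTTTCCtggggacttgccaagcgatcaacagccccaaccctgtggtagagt

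In the Ctla4 window TATAAA lay 40 bases past the start. In the Cd96 window it lay 214 bases before the start. AGGTCA, a DNA element bound by nuclear receptors of the ROR family, was in neither window on either strand. Windows were found for 8 of the 10 genes, and Icos and Lag3 were not matched. AGGTCA was in the windows of Pdcd1 and Havcr2, and 16.3% of all 32851 windows of this length held it. GGAAA was in the windows of 5 of the 8 genes and in 61.3% of all windows. TATAAA was in the windows of 2 and in 13.6% of all windows. TGANTCA, an AP-1 motif, was in that of Havcr2 and in 7.81% of all windows, and TGACGTCA was in none of the 8 and in 1.79% of all windows. Both strands were searched for each, and such matches describe letters only.

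Reads per sample ranged from 52456804 to 74676721, and the 10 genes together took 0.0831% to 0.0971% of them. The smallest number of reads behind a value was 148, for Cd160. Clustering of the samples on 16850 genes, with the receptors and all gene lists left out, gave 3 sets. Set 1 held WT 1, WT 3 and K187R 1. Set 2 held WT 2, K187R 2 and K187R 3, and set 3 held WT 4 and K187R 4. Xist, which is transcribed from the inactive X chromosome, was at 13564 to 17373 normalized counts in set 2 and at 3.56 to 23.7 in the other samples. All 10 T cell markers were tested and none had an unadjusted p under 0.05. Of the 8 Th17 markers, 5 were higher in the K187R group at an unadjusted p under 0.05, as were 2.75% of all genes tested. None passed the adjusted threshold in limma. DESeq2, used below as an alternative, gave the marker Il1r1 an adjusted p of 3.73e-05, and the other Th17 markers were above 0.05. No marker of CD8 T cells (2 tested), gamma delta T cells (5), natural killer cells (3 of 5 tested), B cells (6) or myeloid cells (7) had an unadjusted p under 0.05. The summed CD8 T cell markers were at 387 to 1141 normalized counts and the gamma delta markers at 1100 to 1770.

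Levels differed widely between the receptor genes. On the scale of normalized counts per kilobase of exon, Ctla4 had the highest mean over the 8 samples, 5709, with a range of 4332 to 7962. It was followed by Lag3 with a mean of 4117, Icos with 3824 and Pdcd1 with 3414, and the ranges of neighbours among these 4 overlapped. Cd96 had a mean of 1820, Btla 1747 and Tigit 1367 on this scale, again with overlapping ranges. Cd200 had a mean of 740, and its range of 613 to 899 overlapped that of Tigit. Havcr2 had a mean of 157 per kilobase and Cd160 71.1, each with a range that lay wholly below that of the gene before it. Pdcd1 was also separated from Cd96, since its lowest sample had 3064 and the highest Cd96 sample 2199. Ctla4 stood at the 97.7th percentile and Cd160 at the 31.7th percentile of tested genes on this scale.

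Ctla4 (ENSMUSG00000026011, chr1:60887000-60915832, plus strand) showed the largest difference among the 10. The WT samples 1 to 4 had 18551, 13494, 16697 and 13975 normalized counts, and the K187R samples had 11057, 10949, 10094 and 11599. The lowest WT sample was therefore above the highest K187R sample, and the WT samples were the more widely spread. The means were 15679 ± 2378 and 10925 ± 622 (SD, n = 4). The K187R level was 0.702 of the WT level, a log2 fold change of -0.51 with a standard error of 0.107 and a 95% interval of -0.75 to -0.27. The unadjusted p was 0.00088 and the adjusted p 0.921 in limma over all genes tested. The exact two-sided permutation p was 0.0286, the smallest that 4 against 4 samples can give. Any gene whose groups do not overlap gets this p, so it is no further result. Over all genes tested, 2.46% had groups that did not overlap, 0.989% with the K187R group below, and 4.39% had an unadjusted p under 0.05, 1.64% with the K187R group lower. No gene passed the adjusted threshold in limma, or 0% of those tested. DESeq2, the tool named in the methods of the study, run here on the recovered reads, gave Ctla4 an adjusted p of 0.00776 and called 0.183% of genes. With the sample set as a factor DESeq2 called 0.848% of genes, Ctla4 among them. With the replicate number as a factor it called 1.02% of genes, among them Ctla4 and Cd96.

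Cd96 (ENSMUSG00000022657, chr16:46035657-46120251, minus strand) differed between the groups in the opposite direction. The WT samples had 3545, 3757, 3180 and 3646 normalized counts and the K187R samples 4803, 4251, 4311 and 4298. The highest WT sample was below the lowest K187R sample, and K187R 1 stood above the others of its group. The means were 3532 ± 250 and 4416 ± 260 (SD, n = 4). The fold was 1.25 with a 95% interval of 1.11 to 1.41, a log2 fold change of 0.32 with a standard error of 0.0772. The unadjusted p was 0.00214 and the adjusted p 0.921 in limma. The exact two-sided permutation p was again 0.0286, which follows from groups that do not overlap. The K187R group lay wholly above the WT group in 1.47% of genes, and was higher at an unadjusted p under 0.05 in 2.75%. Thus 2 of the 10 receptor genes had groups that did not overlap and 2 had an unadjusted p under 0.05, against 2.46% and 4.39% of all genes tested.

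**Figure D1:**
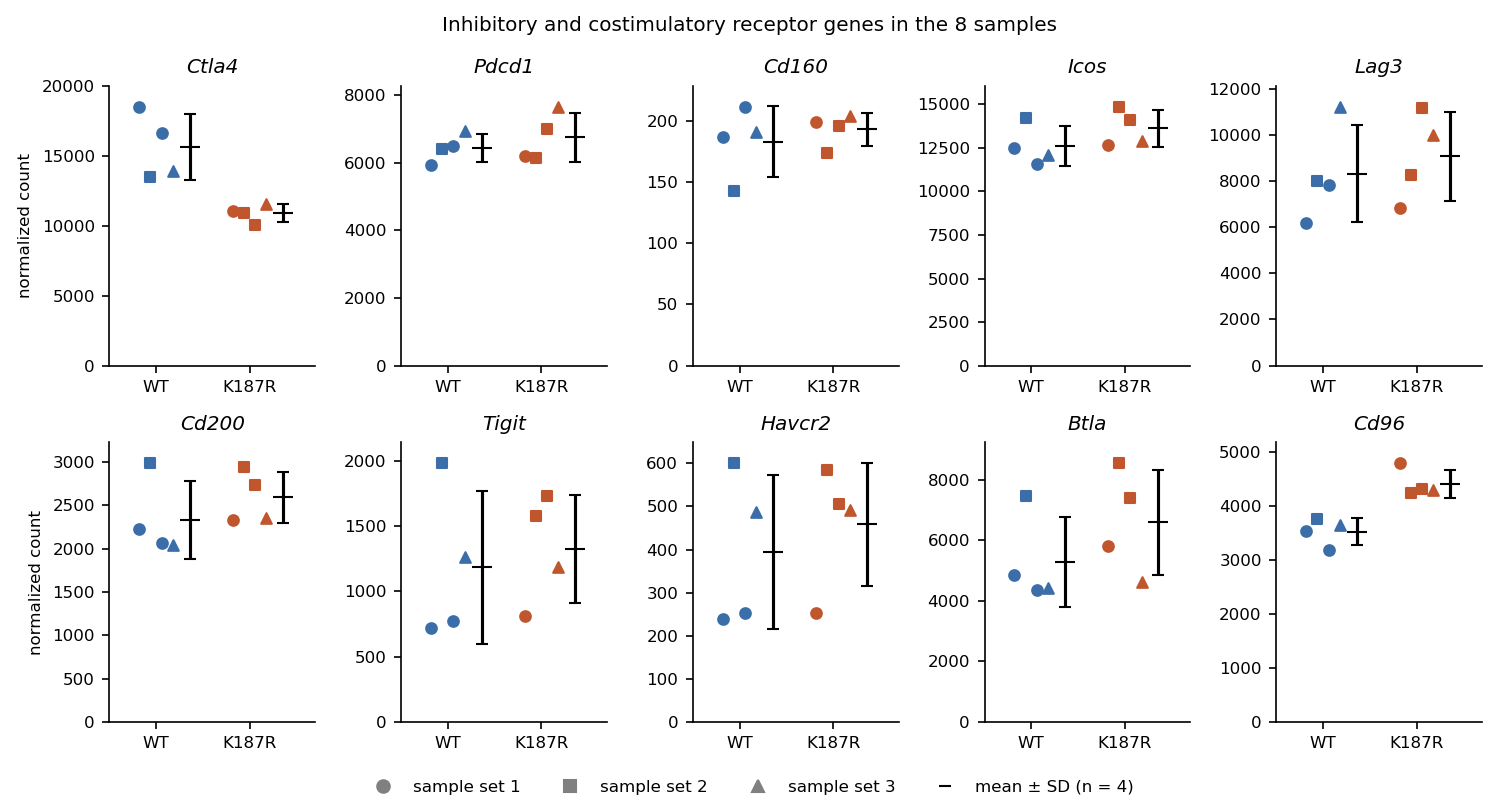
Normalized counts (linear axis from 0) of the 10 receptor genes in each of the 4 WT and 4 K187R samples, ordered by log2 fold change. Symbols give the sample set and bars the mean ± SD. All 4 K187R points lie below the WT points for Ctla4 and above them for Cd96, while the set 2 squares lie above all other points for Tigit, Havcr2, Btla, Icos and Cd200.

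Within the sample sets the size of these differences varied. For Ctla4 the K187R minus WT difference on the log2 scale was -0.67, -0.36 and -0.27 in sets 1 to 3, and for Cd96 it was 0.52, 0.19 and 0.24. The shared sign follows from groups that do not overlap and is no further result. Set 3 holds 1 sample of each group, so its value has no replicate check. With the set as a factor in limma, the log2 fold change was -0.45 for Ctla4 and 0.32 for Cd96. The groups accounted for 76.3% of the variance of the log2 values of Ctla4 and 79.6% of that of Cd96. The median over all genes, which were not chosen in this way, was 9.11%. Both receptor genes were singled out for groups that do not overlap. A high share goes with that choice and is no further result either.

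Because CTLA-4 is abundant on regulatory T cells, the markers of that cell type are given beside it. None of the 5 markers was at 0, and 0 of the 5 had an unadjusted p under 0.05. Their median log2 fold change was -0.20. Their summed level was 91066 to 161608 normalized counts in the WT group and 88931 to 127920 in the K187R group. Foxp3, the defining factor of regulatory T cells, was at 14863, 6121, 17297 and 12367 normalized counts in the WT samples and at 13524, 6666, 7574 and 11144 in the K187R samples. The 2 samples with the most Ctla4, WT 1 and WT 3, were also the highest in Foxp3 and in Il2ra, which encodes the high-affinity IL-2 receptor chain. Il2ra, at 68677 to 132090 normalized counts, made up most of the summed level. Ikzf2, the 1 marker above 0, had a log2 fold change of 0.34 and was highest in WT 2, at 4553. WT 2 was also the lowest sample in Foxp3, yet its 13494 normalized counts of Ctla4 lay above every K187R sample. The part of these markers in the Ctla4 values was not tested. In bulk samples, fewer cells of a type and less RNA per cell cannot be told apart.

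**Figure D2:**
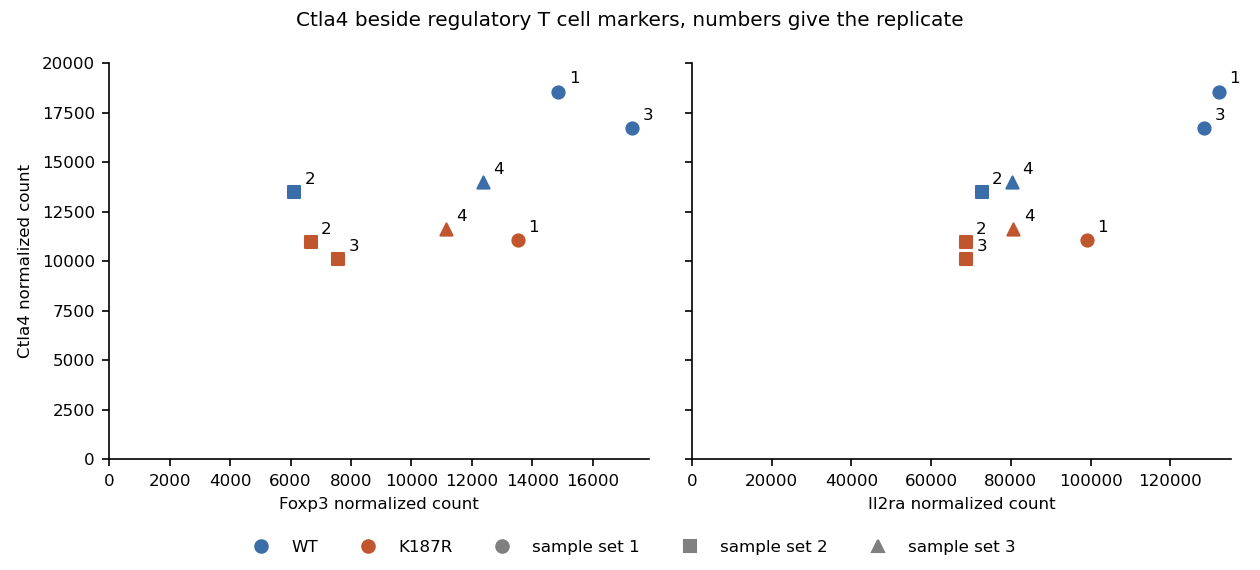
Normalized counts of Ctla4 (vertical axis) against Foxp3 (left) and Il2ra (right) in the 8 samples, all linear axes from 0, with group by colour, sample set by symbol and replicate by number. WT 1 and WT 3 are highest on all axes, and the 3 samples of set 2 are lowest in Foxp3.

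Icos (ENSMUSG00000026009, chr1:60977927-61000320, plus strand) lies next to Ctla4 and encodes a costimulatory receptor. It had 11603 to 14232 normalized counts in the WT group and 12641 to 14866 in the K187R group. The log2 fold change was 0.11 with a 95% interval of -0.079 to 0.30. The ratio of Ctla4 to Icos per kilobase of exon was 1.40 to 2.19 in the WT samples and 1.06 to 1.32 in the K187R samples, without overlap. Ctla4 carries its own separation into this ratio, so that is no further result. Cd28, which flanks Ctla4 on the other side, had 40282 normalized counts on average in the WT group and 40914 in the K187R group. Its log2 fold change was 0.033 with a 95% interval of -0.22 to 0.29, and the sign turned with the sample set as a factor (-0.032). The ratio of Ctla4 to Cd28 per kilobase was 0.718 to 1.29 and 0.632 to 0.765, which overlapped. Among the 12 tested genes within 500 kb of this cluster, Ctla4 was the 1 whose groups did not overlap, and 2.46% of all genes tested had such groups. The region was drawn to include Ctla4, so this 1 gene was fixed in advance.

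Tigit, Btla, Cd200 and Cd96 lie within 2471 kb on chromosome 16. Among the 30 tested genes there or within 500 kb, Cd96 was the 1 whose groups did not overlap, and 2.46% of all genes tested had such groups. The region was drawn to include Cd96, so this 1 gene was fixed in advance.

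**Figure D3:**
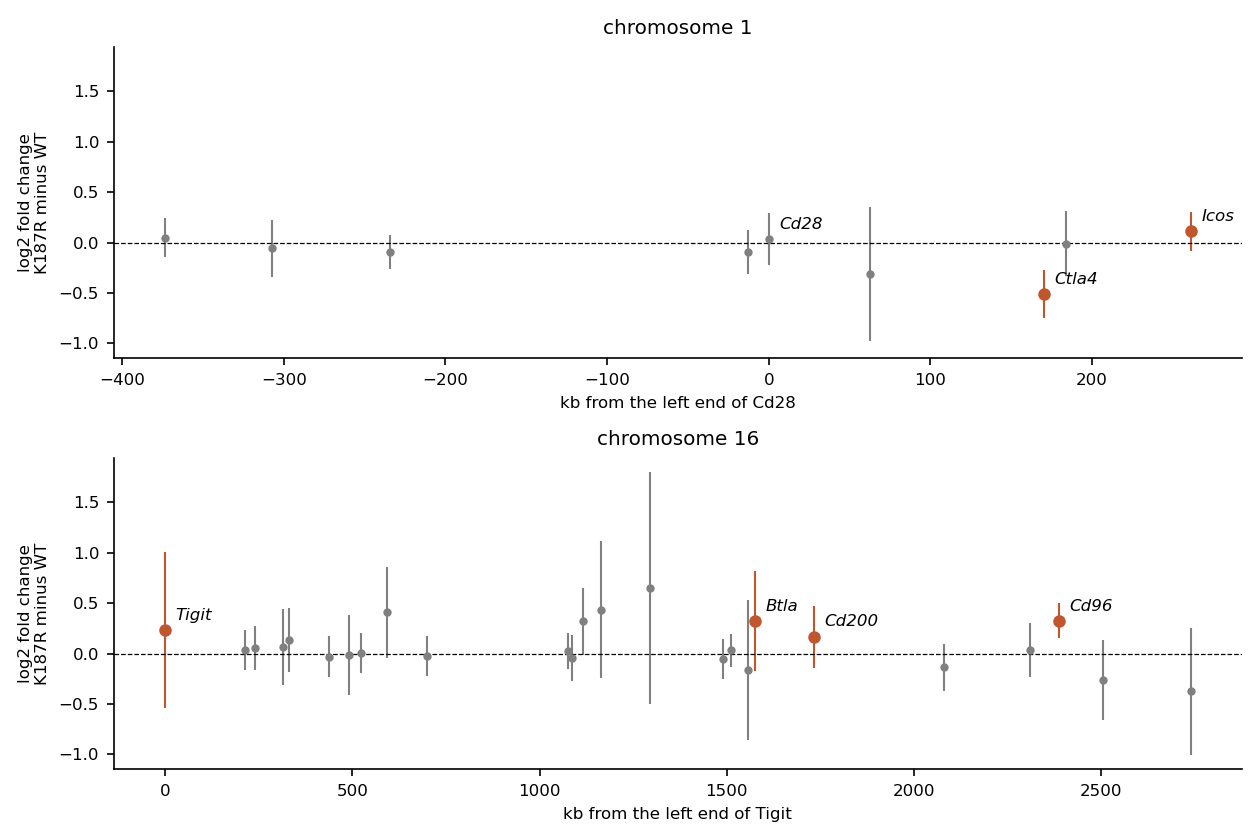
Log2 fold change (K187R minus WT, with 95% interval from limma) of genes averaging at least 50 normalized counts, against distance in kb from the left end of Cd28 on chromosome 1 (top) and of Tigit on chromosome 16 (bottom). Receptor genes are coloured. The intervals of Ctla4 and Cd96 do not reach 0, while those of Icos, Tigit, Btla and Cd200 do.

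The second receptor of nectin-family ligands, Tigit (ENSMUSG00000071552, chr16:43648867-43664146, minus strand), varied more between sample sets than between groups. The WT samples had 719, 1985, 770 and 1261 normalized counts and the K187R samples 812, 1580, 1732 and 1188. The highest and the lowest sample were both WT. The log2 fold change was 0.23 with a standard error of 0.343, and it was -0.073 with the sample set as a factor. Cd226, the activating receptor for the same ligands, was named after its values were seen. It had 280 to 769 normalized counts in the WT group and 421 to 935 in the K187R group, a log2 fold change of 0.71 with a 95% interval of -0.058 to 1.48.

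Havcr2 (ENSMUSG00000020399, chr11:46454935-46481255, plus strand), which encodes TIM-3, had a pattern across samples similar to that of Tigit. The WT samples had 238, 601, 253 and 486 normalized counts and the K187R samples 253, 584, 507 and 492. The 3 samples of set 1 were all at or below 253, and the other 5 were at 486 or above. The log2 fold change was 0.27 with a 95% interval of -0.53 to 1.06, and -0.031 with the sample set as a factor. The sign of the group difference in both genes thus turned when the sets were taken into account.

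Btla (ENSMUSG00000052013, chr16:45224315-45257670, plus strand) and Cd160 encode receptors for the TNF receptor family member HVEM. Btla had 4835, 7472, 4362 and 4428 normalized counts in the WT samples and 5821, 8546, 7380 and 4611 in the K187R samples. Set 2 was high in both groups, and the groups overlapped. Its log2 fold change was 0.32 with a standard error of 0.221 and an exact permutation p of 0.257, and it was 0.17 with the sample set as a factor. Cd160 (ENSMUSG00000038304, chr3:96798763-96829351, minus strand) was the lowest of the 10, at 142 to 211 normalized counts in the WT group and 174 to 204 in the K187R group. Its log2 fold change was 0.090 with a 95% interval of -0.26 to 0.44, and it turned to -0.017 under quantile normalization. Of its exonic bases, 2.57% are shared with Pdzk1 on the other strand, whose reads cannot be told apart where counting ignores strand.

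The remaining receptor genes overlapped between the groups. Pdcd1 (ENSMUSG00000026285, chr1:94038305-94052553, minus strand), which encodes PD-1, had 5914 to 6928 normalized counts in the WT group and 6143 to 7651 in the K187R group. Its log2 fold change was 0.065 with a 95% interval of -0.14 to 0.27, the smallest among the 10. Lag3 (ENSMUSG00000030124, chr6:124904361-124911705, minus strand), which encodes a receptor for MHC class II, had 6200 to 11216 and 6821 to 11160 normalized counts. Its log2 fold change was 0.13 with a 95% interval of -0.31 to 0.57. Cd200 (ENSMUSG00000022661, chr16:45382135-45409053, minus strand) encodes the ligand of the inhibitory receptor CD200R1 rather than a receptor of that kind. It had 2036 to 2987 and 2333 to 2939 normalized counts, and a log2 fold change of 0.17 with a 95% interval of -0.14 to 0.47. In all, 9 of the 10 genes were higher on average in the K187R group. Their median log2 fold change was 0.15, beside -0.006 over all genes, of which 48.4% were above 0. With the sample set as a factor in limma, Havcr2 (-0.031) and Tigit (-0.073) were below 0 as well. Pdcd1 was then at 0.051, Lag3 at 0.041, Icos at 0.059, Cd200 at 0.075 and Btla at 0.17. Cd160 rose to 0.16 and Cd96 stayed at 0.32. The direction without the set as a factor was not particular to the 10 genes. Of 25 other receptors examined below, 19 were above 0 and 6 below. Of the 10 T cell markers, 9 were above and 1 below, and of the 5 regulatory T cell markers 1 was above and 4 below.

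**Figure D4:**
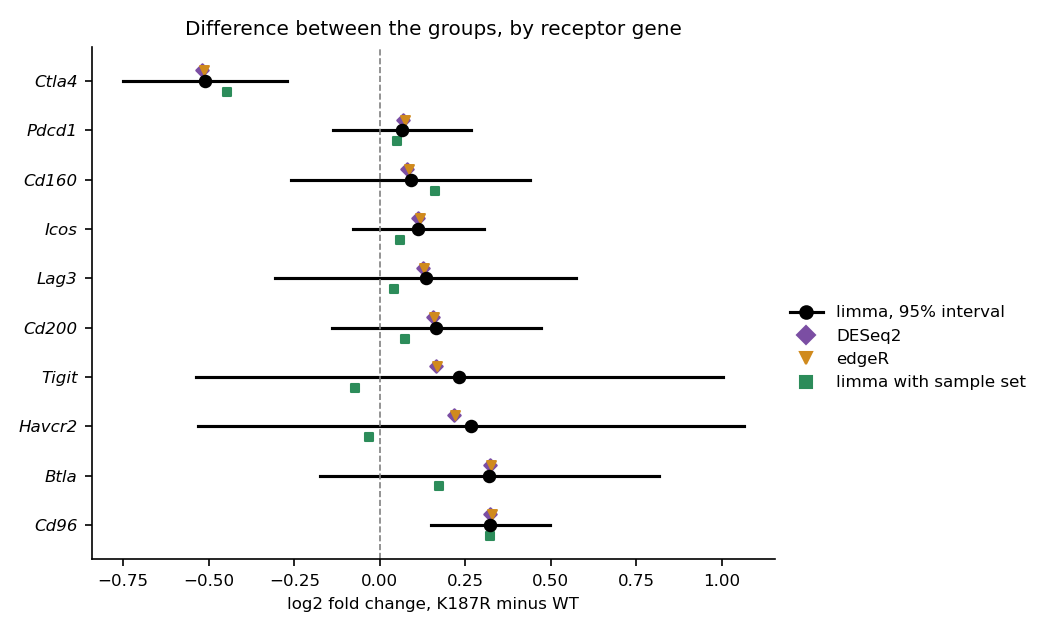
Log2 fold change (K187R minus WT) of each receptor gene from limma with its 95% interval (black), and the values from DESeq2, edgeR and limma with the sample set as a factor. The intervals of Ctla4 and Cd96 do not include 0, and the values of Tigit and Havcr2 lie below 0 when the set is a factor.

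Across the samples, several receptor genes followed the sample sets. All 3 samples of set 2 were above the other 5 samples for Havcr2, Tigit, Btla, Icos and Cd200, which is 5 of 10 genes, whereas this held for 8.46% of all genes tested. Mean normalized counts in set 2 were 1.86 times those of the other samples for Tigit, 1.64 times for Havcr2, 1.62 times for Btla, 1.31 times for Cd200 and 1.17 times for Icos. The sets accounted for 98.3% of the variance of Havcr2 and 96.7% of that of Tigit on the log2 scale, but for 35.5% of that of Ctla4 and 7.67% of that of Cd96. In all, 7 of the 10 genes had over 50% of their variance between sets, and 51.7% of all genes did. The sets were defined on other genes of the same samples, so these shares are descriptions. Set 2, with 1 WT and 2 K187R samples, was also the set with high Xist. The sex of the donor mice therefore cannot be told apart from this set. Markers of other cells also differed between the sets. All 7 myeloid markers were detected. Their sum was 21466 to 36763 normalized counts in set 1, 45670 to 51398 in set 2 and 63471 to 66861 in set 3. Lyz2, at 17025 to 57778, made up most of this sum, and other markers followed another order. Csf1r was highest in set 2, at 4220 to 5074, against 2423 to 2598 in set 3. Itgax was at 1209 to 1930 in set 2 and at 793 to 975 in set 3. The 4 natural killer cell markers in the table summed to 173 to 233, 412 to 522 and 268 to 326. The 6 B cell markers summed to 1060 to 1697, 1281 to 1387 and 324 to 402. In groups, the myeloid sum was 21466 to 63471 for WT and 36763 to 66861 for K187R. The part of these markers in the receptor values was not tested.

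**Figure D5:**
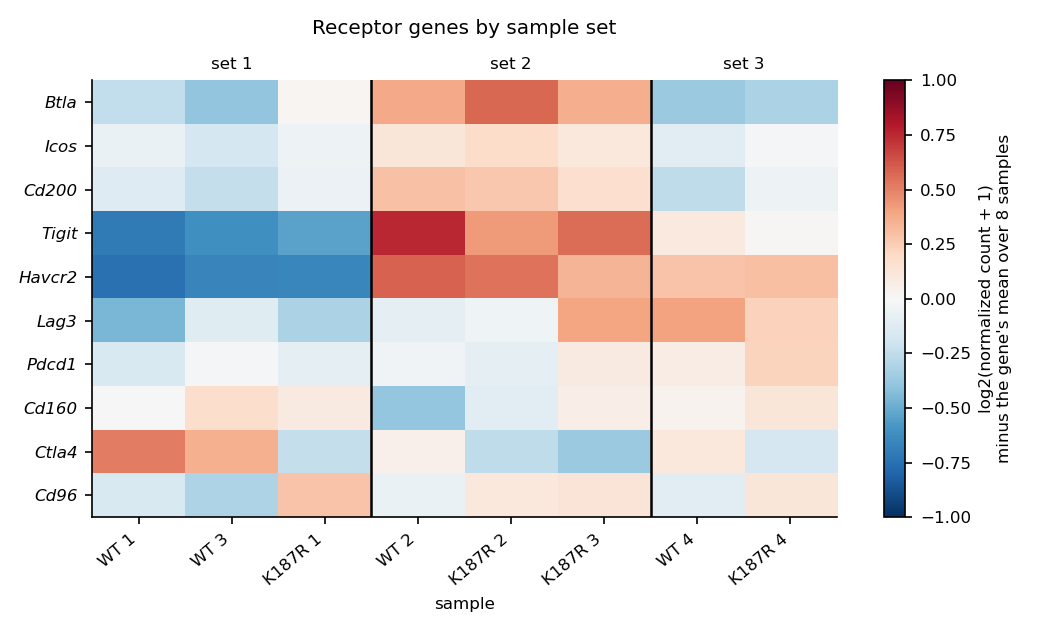
Log2(normalized count + 1) of each receptor gene minus its own mean over the 8 samples (colour), with samples in columns ordered by sample set. Set 2 is high for Btla, Icos, Cd200, Tigit and Havcr2, set 1 is low for Tigit and Havcr2, and Ctla4 and Cd96 differ between the groups.

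With the group means removed, 6 of the 45 pairs of receptor genes had a Pearson r over 0.8 across the 8 samples and 4 had an r under -0.8. Icos and Cd200 had an r of 0.97, Havcr2 and Tigit 0.95, Btla and Cd200 0.94 and Btla and Icos 0.93. Lag3 and Pdcd1 had an r of 0.82, and so did Tigit and Icos. Cd160 ran the opposite way to Cd200 (-0.93), Icos (-0.91) and Btla (-0.85), and Ctla4 to Tigit (-0.82). These 8 points share libraries and sample sets, and the values are descriptions. Over the 8 samples with the groups left in, the gene most like Ctla4 was Ctla2a (r = 0.98), which encodes a cysteine protease inhibitor and belongs to a different family despite its name. Its normalized counts averaged 6332 in the WT group and 3547 in the K187R group, and it has close copies in the genome between which reads may be split. The genes most like Cd96 were Ifi203 (r = 0.95) and Il1r1 (r = 0.95), among 22 of 13356 candidates with an r over 0.9. For the other receptor genes, 62 to 368 candidates had such an r. Genes picked for likeness to Cd96 tend to separate the groups as it does, so that is no further result. Il1r1 encodes the IL-1 receptor, a signal for Th17 cells, and had 571 to 872 normalized counts in the WT group and 1227 to 1430 in the K187R group, without overlap. Tigit was most like Itgb3 and Cd244, Havcr2 most like Rnf217, Btla most like Slc7a11, Icos most like Ccdc88a and Lag3 most like Banp, each with an r of 0.99.

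Other genes of these pathways were examined as lists. Of 25 other costimulatory and inhibitory receptors, 3 were higher and 1 lower in the K187R group at an unadjusted p under 0.05, with a median log2 fold change of 0.18. Over all genes tested, 2.75% were higher and 1.64% lower at this threshold, and these shares are the background of each list that follows. None passed the adjusted threshold in limma, and in limma this held for every list. Tnfrsf9, which encodes the costimulatory receptor 4-1BB, had 5524 to 6828 normalized counts in the WT group and 3805 to 5022 in the K187R group, a log2 fold change of -0.44. Cd72, a receptor with an inhibitory motif best known from B cells, had 457 to 767 and 775 to 980 normalized counts, a log2 fold change of 0.70. Both were without overlap between the groups, the 1 higher and 1 lower gene of this list, against 1.47% and 0.989% of all genes tested. The ligands and the signalling partners below also had 1 and 1 such genes, and the transcription factors 0 and 1. Genes named from these 4 lists were those with the smallest p in their direction. Their separation goes with that choice and is no further result. Cd5, which dampens signals of the antigen receptor, had a log2 fold change of 0.27 with groups that overlapped.

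Of 18 ligands and counter-receptors, 14 were tested, and 2 were higher and 1 lower at an unadjusted p under 0.05. Lgals9, which encodes the TIM-3 ligand galectin-9, had 4344 to 4907 normalized counts in the WT group and 5180 to 5651 in the K187R group. Pvr, which encodes the shared ligand of TIGIT, CD96 and CD226, had 2553 to 2897 and 2241 to 2501 normalized counts. The groups did not overlap in either gene. The median of this list was 0.11.

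Of 21 signalling partners, 1 was higher and 1 lower at an unadjusted p under 0.05, with a median of 0.020. Cblb, which encodes a ubiquitin ligase that limits T cell activation, had 16530 to 18735 normalized counts in the WT group and 13817 to 14938 in the K187R group, a log2 fold change of -0.29. Ptpn6, which encodes the phosphatase SHP-1, had 6900 to 7943 and 8457 to 10792 normalized counts, a log2 fold change of 0.31. In both genes the groups did not overlap.

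Of 18 transcription factors tied to the expression of these receptors, 2 were higher and 2 lower at an unadjusted p under 0.05, with a median of 0.11. Nr4a2, which is induced by signals of the antigen receptor, had 2463 to 3116 normalized counts in the WT group and 1914 to 2289 in the K187R group without overlap, a log2 fold change of -0.47. Its relative Nr4a3 had a log2 fold change of -0.45, with groups that overlapped. Tox and Tox2, factors known from chronically stimulated T cells, had log2 fold changes of 0.47 and 0.56, also with overlap. DESeq2 gave an adjusted p of 0.00669 for Cblb and 0.00739 for Nr4a2.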

How the data were processed

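RNA seq was performed on 8 samples, 4 per group, and groups and replicate numbers were taken from the labels. The labels name a TruSeq kit and total RNA, while the methods of the study name a poly-A kit of KAPA. Cutadapt, HiSat2 and featureCounts were used by the authors on GRCm38 with GENCODE M15, and DESeq2 for testing. Versions, strand setting and treatment of multi-mapping reads are not given in the sources used here. The table deposited by the authors holds a signal, which is the reads of a gene divided by a size factor. Whole reads were recovered for 100% of values within 0.01 of a read, and no per-sample column was left unused.

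Values were tested as log2(normalized count + 1) with limma 3.58.1 (R 4.3.3), using lmFit and eBayes with a trend over 16982 genes with a mean of at least 10, with Benjamini-Hochberg adjustment. A log2 fold change on this scale understates the change of low genes. Each receptor gene was also examined by an exact permutation test, two-sided, over the samples. The 3 reads taken as a floor equal 2.54 to 3.56 normalized counts. Counting error, as the standard error of a Poisson count, was at most 8.22% for the lowest of the 10 genes. EdgeR 4.0.16 and DESeq2 1.42.0 on the recovered reads were alternatives, and edgeR called 0 genes. Further alternatives were other pseudocounts, filters and normalizations, the replicate number or the sample set as a factor, and leaving out samples or sets. Samples were clustered by Ward's method into 3 sets. The methods were tested on simulated data.

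The receptors, the lists (other receptors, ligands, signalling partners, transcription factors and cell type markers) and the tests were chosen with earlier results of these data known. From each list, the 3 genes with the highest mean and the 2 with the smallest p in each direction could be named, together with the genes most like each receptor by Pearson r (mean of at least 50). Some results are left out here. Cd226 and Xist fall outside the rule, and both were named after their values were seen. The older symbol Cd244 was used in a list as in the table. Gene positions and exon lengths are from GENCODE M21 on GRCm38, which holds 22784 of the 22829 listed genes. No 2 samples had counts that agreed within sampling noise, with a chi-square per gene of 19.7 to 128 between pairs.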

Additional observations from a re-analysis of the deposited data

Results flagged for a closer look

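In 2 of 22 groups of 4 samples examined, 1 sample stood apart from the others by Dixon's criterion, which chance meets in about 1 in 20 groups, so 1.1 would be expected. Btla was at 7472 normalized counts in WT 2, while the other WT samples were at 4362 to 4835. WT 2 belongs to set 2, whose K187R samples were also high. Cd96 was at 4803 normalized counts in K187R 1, while the other K187R samples were at 4251 to 4311. Without K187R 1, the log2 fold change of Cd96 was 0.28. The explanations were not tested.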

How the results depend on the processing

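The direction of the log2 fold change was the same under all 25 alternatives for Ctla4 (-0.59 to -0.43), Cd96 (0.27 to 0.40), Pdcd1, Lag3, Btla, Icos and Cd200. For Ctla4 and Cd96, leaving out samples or sets cannot turn the sign, because their groups do not overlap. Under limma, edgeR and DESeq2 with the set as a factor, Havcr2 turned to -0.031, -0.034 and -0.036, Tigit to -0.073, -0.077 and -0.079, and Cd28 to -0.032, -0.030 and -0.031. With each sample left out, the values were 0.18 to 0.50 for Btla, 0.0042 to 0.29 for Lag3, 0.0019 to 0.11 for Pdcd1, 0.069 to 0.17 for Icos and 0.10 to 0.29 for Cd200. Cd160 turned to -0.017 under quantile normalization. With each sample left out, Cd160 ranged from -0.025 (without WT replicate 2) to 0.16, Cd28 from -0.045 (without WT replicate 3) to 0.14, with -0.019 without K187R replicate 2, and the median of the signalling partners from -0.025 (without WT replicate 2) to 0.054. The cause was not tested.

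No receptor gene passed in limma or edgeR under any setting. DESeq2 called 1, Ctla4 (-0.52, adjusted p 0.00776), and with the set also 1, Ctla4 (-0.45, adjusted p 0.00234). At an unadjusted p under 0.05 there were 2 receptor genes and 746 genes in all. With each sample left out there were 2 to 4 receptor genes (4 without WT replicate 2) and from 329 (without WT replicate 1) to 2181 (without WT replicate 4) genes in all. Over all genes, limma called 0 (edgeR 0, with 729 at an unadjusted p under 0.05), 1 with the set, 1 with the set in edgeR and 4 without set 3. DESeq2 called 31 (17 higher and 14 lower), and 144 with the set. With each sample left out, limma called 0 to 4 genes, the 4 without WT replicate 4, and no receptor gene. The fits with the set in edgeR and DESeq2 were chosen after seeing the data.

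Same-numbered samples of the groups correlated in their deviations from the group means at 0.592, 0.663, -0.092 and 0.63 for numbers 1 to 4, and K187R 3 correlated best with WT 2 while the other K187R samples correlated best with their own number. The number 3 samples also differed in Xist, at 10.1 normalized counts in WT 3 and 13564 in K187R 3. Since number 3 did not pair, the numbers were not taken as pairs. Whether some of the other numbers mark a shared animal or culture is not known. With the replicate block, limma and edgeR called 0 genes, and 2046 in limma had an unadjusted p under 0.05. DESeq2 with the replicate block called 174 genes and 2 receptors, Ctla4 (-0.51, adjusted p 0.000363) and Cd96 (0.32, adjusted p 0.0121, against 0.0625 without the block).

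Counting error, in the sample with the fewest reads on the gene, reached 8.22% for Cd160 and 7.07% for Havcr2, and was below these for the other receptors. With 4 samples per group, exact permutation cannot go below 0.0286.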
